A study of Mus musculus with 4 samples.

Results

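Genes of myoblast fusion and adhesion, namely *Mymk*, *Mymx*, *Cdh15*, *Cdh2*, *Jam2*, *Jam3* and *Kirrel*, were followed through the cells of fetal mouse leg muscle. The 7 genes were chosen by name, as known fusion proteins and adhesion partners of myoblasts, from 32285 genes in the feature tables, and a member was found by its gene symbol. Transcripts were counted by droplet-based single-cell RNA sequencing as unique molecular identifiers (UMIs), each standing for 1 captured molecule read near its 3′ end. Wild-type (WT) and SYISL knockout (KO) fetuses at E18.5, littermates from matings of heterozygous parents, gave 2 libraries per genotype. SYISL is a long non-coding RNA encoded within *Synpo2*, the deletion is carried by all cells of the KO fetuses, and how many fetuses entered a library was not stated.

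Muscle fibers form when mononucleated myoblasts leave the cell cycle, switch on myogenin (*Myog*) and fuse with each other or with an existing fiber. *Mymk* encodes myomaker, a multipass membrane protein that brings the outer leaflets of the apposed membranes together, and *Mymx* encodes myomixer, a micropeptide needed to open the fusion pore. Before fusion the cells recognise each other through cadherins (M-cadherin from *Cdh15*, N-cadherin from *Cdh2*) and immunoglobulin-type proteins, namely JAM-B and JAM-C (*Jam2* and *Jam3*), which bind each other, and Neph1 (*Kirrel*), a relative of the proteins that mark fusing myoblasts in the fly.

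In the mouse genome (GRCm38, GENCODE M21) the 7 genes lie on 7 chromosomes and are all protein-coding, and *Cdh2* is placed with its values further on. *Mymk* (ENSMUSG00000009214) spans chr2:27061636-27072179 on the minus strand and *Mymx* (ENSMUSG00000079471) spans chr17:45600971-45602102 on the minus strand, and no other annotated gene overlaps either of them. *Cdh15* (ENSMUSG00000031962, chr8:122847966-122867397, plus strand) overlaps the gene model Gm20388 on the same strand, so reads of the shared part cannot be assigned with certainty. *Jam3* (ENSMUSG00000031990, chr9:27097384-27155421, minus) overlaps an antisense transcript. *Jam2* (ENSMUSG00000053062, chr16:84774123-84825928, plus) and *Kirrel* (ENSMUSG00000041734, chr3:87078593-87174747, minus) each overlap a short non-coding or intergenic RNA model. *Kirrel* lies on the chromosome that also holds SYISL.

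Promoter sequences from RefSeq (GRCm38.p6) matched 2 of the 7 members, *Cdh15* and *Kirrel*, and both are shown. Each runs from 250 bases before to 50 bases after the transcription start of that promoter set, in the direction of the gene. For both genes this start lies inside the GENCODE span given above, as does the whole *Cdh15* window. Positions relative to the GENCODE start would therefore differ. Capitals mark CANNTG, the E-box core that myogenic regulatory factors can bind, which reads the same on both strands.
Cdh15, chr8:122848124-122848423, plus strand: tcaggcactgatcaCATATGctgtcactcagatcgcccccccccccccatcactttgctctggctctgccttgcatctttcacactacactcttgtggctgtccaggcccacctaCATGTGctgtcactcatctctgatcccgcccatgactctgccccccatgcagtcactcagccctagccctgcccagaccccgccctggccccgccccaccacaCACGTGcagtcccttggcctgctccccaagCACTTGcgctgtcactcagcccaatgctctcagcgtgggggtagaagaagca
Kirrel, chr3:87174488-87174787, minus strand: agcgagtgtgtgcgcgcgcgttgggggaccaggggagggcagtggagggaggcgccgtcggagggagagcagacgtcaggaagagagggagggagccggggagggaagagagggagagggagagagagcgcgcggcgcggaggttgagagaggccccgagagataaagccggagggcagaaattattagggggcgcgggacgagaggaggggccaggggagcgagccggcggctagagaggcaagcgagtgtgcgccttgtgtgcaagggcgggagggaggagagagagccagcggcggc
The *Cdh15* window held 4 matches, beginning at -236, -135, -32 and -2 relative to that start, and the *Kirrel* window held 0. Of 32851 promoter windows of the same length, 72.3% held at least 1 match, so a match by itself was common. That share does not cover the number of matches in a window. The form CAGCTG was in neither window and in 16.3% of the promoter windows. The *Kirrel* window held 28 CpG dinucleotides and the *Cdh15* window held 7.

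The deposited matrices held 41741 cells and 36969 were left by the thresholds that the study states, more than the study itself reported keeping. Kept cells had a median of 9118 to 11427 UMIs per library, and library totals ran from 109653824 to 126257094 UMIs. Libraries shared between 21 and 41 cell barcodes per pair. KO replicate 2 stood apart by *Xist*, the RNA of the inactive X chromosome, with 131038 UMIs against 0 to 5 in the other 3 libraries, so the sex of the fetuses was not balanced between the genotypes, and each genotype comparison was also run without it. Cells were grouped by marker genes that contained none of the 7 members, and the members were also kept out of the clustering. All 8 myogenic markers were at least 4.40-fold higher in the myogenic-like cells than elsewhere. There were 6786 of these cells, 1487 and 1320 in WT and 2049 and 1930 in KO, and they formed 17.5%, 16.1%, 20.9% and 18.4% of their libraries.

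Within the myogenic-like cells, sub-clusters gave 3558 progenitor-like cells, 1895 cycling cells, 1183 myoblast-like cells and 150 myotube-like cells. *Myog*, which marks commitment to differentiation, was 14.8-fold higher in the myoblast-like cells than in other myogenic-like cells, and 6 of the 8 myoblast markers were at least 2-fold higher, while *Myl4* was not (0.78-fold). The progenitor-like label was the weakest, since only 3 of 8 markers were over 2-fold and *Pax7* was 1.87-fold higher. Myotube-like cells were few, with 37 and 17 in the WT and 31 and 65 in the KO libraries, and their median depth was 5981 and 5434 UMIs in WT against 17683 and 13620 in KO. The 8 markers of fibro-adipogenic progenitors (FAPs), the connective tissue cells of muscle, summed to 28.6% to 51.0% of their FAP-like level in the myotube-like cells, against 0.907% to 1.2% in the myoblast-like cells and 3.03% to 3.34% in the progenitor-like cells. The class also depended on the settings. It held 80 cells with Scrublet doublets removed, 79 with libraries centred before clustering and 80 with the members among the variable genes. The looser cell filter gave 222 cells, and finer clustering left 11 to 30 per library. Levels in myotube-like cells were therefore read with these facts beside them, and are those of the main setting alone.

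Levels below are CPM, the UMIs of a gene divided by all UMIs of a class in a library and scaled to 1000000, listed for WT replicates 1 and 2 and then KO replicates 1 and 2, and they were compared between cell classes for the same gene only. *Mymk* was at 180, 198, 217 and 173 CPM in the myoblast-like cells. In the progenitor-like cells it was at 2.37, 2.33, 3.09 and 1.98 CPM, so the myoblast-like level was 70.3 to 87.0 times higher within each library. The cycling cells stood between them with 7.61 to 12.2 CPM, and the ranges of these 3 stages did not overlap. The myotube-like cells held 244, 95.4, 135 and 103 CPM, a range that overlapped the myoblast-like one.

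*Mymx* followed the same order with 663, 619, 702 and 569 CPM in the myoblast-like cells and 4.46, 5.10, 4.39 and 5.82 CPM in the progenitor-like cells. The level was 97.7 to 160 times higher in the myoblast-like cells of each library. Cycling cells held 35.9 to 46.8 CPM, already 7.26 to 9.19 times the progenitor-like level in the same library. In the myotube-like cells *Mymx* was at 391, 234, 447 and 249 CPM, below the myoblast-like cells in all 4 libraries. These myotube-like cells numbered 17 to 65 per library, and their FAP marker sum was 28.6% to 51.0% of its FAP-like level. The part of FAP RNA in the lower *Mymx* level was not tested. None of the 4 stage ranges overlapped.

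Outside the muscle lineage both fusogen genes were close to absent. Myogenic-like cells carried 92.4% to 96.1% of the *Mymk* UMIs and 94.5% to 97.0% of the *Mymx* UMIs of the library. FAP-like cells held 0.6 to 0.76 CPM of *Mymk* and 1.32 to 2.09 CPM of *Mymx*, and the neutrophil-like cells were at 0 for both in every library. After each cell was thinned to 2000 UMIs, 29.6% ± 3.72 (SD, n = 4 libraries) of the myoblast-like cells had a *Mymk* UMI and 62.6% ± 4.37 had a *Mymx* UMI, against 0.094% ± 0.028 and 0.286% ± 0.088 of the FAP-like cells, which should lack them. The progenitor-like cells, with 0.276% ± 0.095 and 0.782% ± 0.35, had means above that background and far below those of the myoblast-like cells. Before thinning, the median depth of progenitor-like cells was 7488 to 9767 UMIs against 9144 to 12132 in FAP-like cells.

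**Figure D1:**
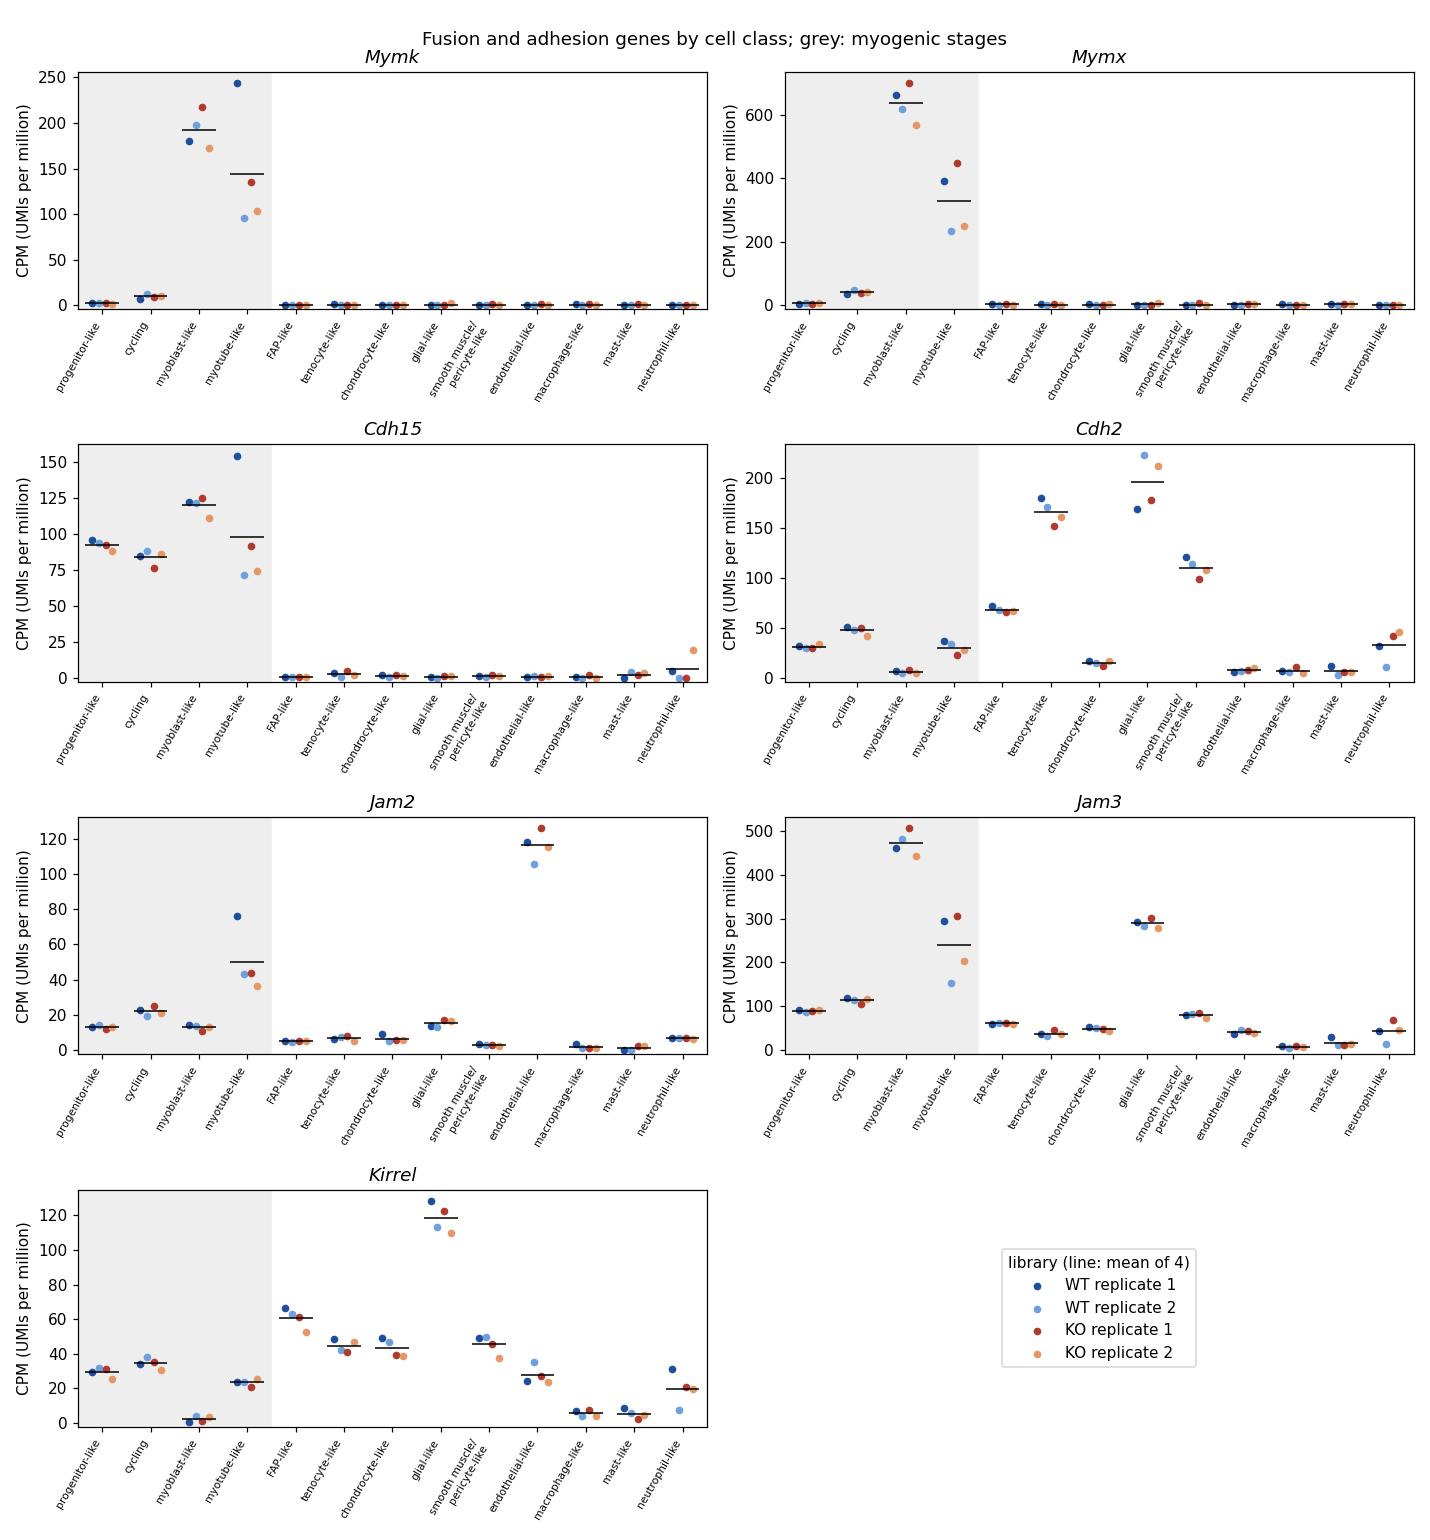
Each panel plots the level of 1 gene (vertical axis, CPM, linear) in 4 myogenic stages (grey) and 9 other classes, with a point per library (blue WT, red and orange KO) and a line at the mean of 4. Mean levels of *Mymk* and *Mymx* peak in the myoblast-like cells, although in WT replicate 1 *Mymk* is higher in the myotube-like cells. *Cdh15* is high in all myogenic stages and highest of the large ones in the myoblast-like cells (112 to 125 CPM), and *Cdh2*, *Jam2*, *Jam3* and *Kirrel* are also high in classes outside muscle.

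Of the adhesion genes, *Cdh15*, the cadherin of muscle precursor cells, was confined to the muscle lineage in the sense that 91.0% to 94.6% of its UMIs were in the myogenic-like cells. It was already present before differentiation, at 95.7, 94.0, 92.4 and 88.1 CPM in the progenitor-like cells. The myoblast-like cells held 123, 122, 125 and 112 CPM, which was 1.27 to 1.36 times higher and did not overlap. Cycling cells, with 76.5 to 88.0 CPM, lay just below the progenitor-like range, and the myotube-like range of 71.5 to 155 CPM overlapped all 3. The other named classes had means of 0.813 to 6.24 CPM, the highest in the neutrophil-like cells, where 2 libraries were at 0. A cluster of 416 cells that carried both *Pax7* and FAP markers, and was left unnamed, held 32.6 to 51.5 CPM of *Cdh15*.

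*Cdh2* (ENSMUSG00000024304, chr18:16588877-16809246, minus strand, with an antisense transcript) went the other way. The progenitor-like cells held 31.9, 29.4, 29.7 and 33.7 CPM and the cycling cells 50.6, 47.4, 49.9 and 41.5 CPM. In the myoblast-like cells it was down to 7.15, 4.93, 7.54 and 4.83 CPM, which was 3.94 to 6.98 times below the progenitor-like level of the same library. This was the lowest mean of the 13 classes and stages, although its range overlapped those of the mast-like, macrophage-like and endothelial-like cells. Glial-like cells had the highest mean (169 to 223 CPM), and their range overlapped that of the tenocyte-like cells (152 to 180 CPM). Smooth muscle or pericyte-like cells followed with 98.4 to 120 CPM and FAP-like cells with 65.9 to 71.3 CPM.

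*Kirrel* showed the steepest fall among the members. It was at 29.4, 31.6, 31.2 and 25.4 CPM in the progenitor-like cells and at 34.2, 37.9, 35.0 and 30.4 CPM in the cycling cells. Only 0.715, 3.70, 0.87 and 3.22 CPM were left in the myoblast-like cells, from 2, 12, 3 and 12 UMIs. The progenitor-like level was 41.1 times higher in WT replicate 1 (95% counting interval 11.2 to 342), 8.54 times in WT replicate 2 (4.79 to 16.8), 35.9 times in KO replicate 1 (12.2 to 175) and 7.89 times in KO replicate 2 (4.42 to 15.5), and these intervals, from an exact binomial test, overlapped. Glial-like cells again ranked first (110 to 129 CPM), apart from the FAP-like cells (52.7 to 66.3 CPM), while smooth muscle or pericyte-like, tenocyte-like and chondrocyte-like cells did not differ beyond their spread.

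In the myotube-like cells *Cdh2* was at 22.9 to 36.7 CPM and *Kirrel* at 20.8 to 25.5 CPM, both above every myoblast-like value. FAP-like cells express both genes, and the FAP marker sum was 28.6% to 51.0% of its FAP-like level in these cells, whose part in this rise was not tested. The FAP marker sum was also lower in myoblast-like cells (273 to 312 CPM) than in progenitor-like cells (834 to 914 CPM), in the same direction as *Cdh2* and *Kirrel*. In progenitor-like cells this sum was 3.03% to 3.34% of the FAP-like level. Means of *Cdh2* and *Kirrel* were 31.2 and 29.4 CPM in progenitor-like cells and 68.1 and 60.7 CPM in FAP-like cells. The part of FAP RNA in the fall of both genes was not tested either.

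The JAM pair was split between cell types. *Jam3* was at 90.9, 86.3, 89.5 and 90.6 CPM in the progenitor-like cells and at 461, 482, 506 and 443 CPM in the myoblast-like cells, a rise of 4.89 to 5.65 times within each library. The myoblast-like range lay above all other classes, with the glial-like cells next (279 to 301 CPM) and the myotube-like cells (153 to 306 CPM) overlapping them. *Jam3* was present in every class, down to 4.88 to 10.4 CPM in the macrophage-like cells. Its binding partner *Jam2* was highest in the endothelial-like cells (118, 105, 126 and 115 CPM), where JAM-B is a known junction protein.

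Within the muscle lineage *Jam2* did not follow *Jam3*. It was at 13.4, 14, 12 and 12.9 CPM in the progenitor-like cells and at 14.3, 13.6, 11 and 12.9 CPM in the myoblast-like cells, with overlapping ranges. Cycling cells held 19.5 to 25.1 CPM, above both. Myotube-like cells held 76.0, 42.9, 43.7 and 36.6 CPM, which was second only to the endothelial-like cells. Endothelial markers summed to 28.8 to 39.3 CPM there against 31.8 to 36.7 CPM in the myoblast-like cells. In these 17 to 65 myotube-like cells per library, 2 to 4 of the 6 endothelial markers had no UMI. Their FAP marker sum was 28.6% to 51.0% of its FAP-like level. The part of endothelial or FAP RNA in this *Jam2* level was not tested.

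From progenitor-like to myoblast-like cells, 4 of the 7 members had all 4 libraries above (*Mymk*, *Mymx*, *Cdh15*, *Jam3*), 2 had all 4 below (*Cdh2*, *Kirrel*) and *Jam2* overlapped. Among 13649 genes with at least 1 CPM, 19.6% lay above and 35.4% below by the same rule. The stages were defined by clustering of the same cells, so these counts describe the classes and were not tested. In a list of 58 other fusion and adhesion genes, 14 lay above, 26 below and 18 overlapped. Of the 49 list genes with at least 1 CPM, 28.6% lay above and 53.1% below. Those above included *Elmo1* (6.56 to 271 CPM, mean of 4 libraries), an activator of Rac signalling, and *Adam12* (6.13 to 39.4 CPM), a membrane metalloprotease. Those below included *Vcam1* (156 to 10.0 CPM), an adhesion receptor, and *Kirrel3* (84.1 to 15.2 CPM), a paralog of *Kirrel*.

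The number of *Myog* UMIs per cell gave an order that did not use the sub-clusters. In the myogenic-like cells thinned to 2000 UMIs, 0.43% ± 0.079 of cells with 0 *Myog* UMIs had a *Mymk* UMI, against 4.61% ± 4.63 at 1, 13.9% ± 3.35 at 2, 18.8% ± 3.74 at 3 to 4 and 32.5% ± 3.01 at 5 or more (SD, n = 4 libraries). *Mymx* went from 0.634% ± 0.192 through 10.8% ± 6.0, 22.6% ± 6.76 and 43.4% ± 8.78 to 63.7% ± 0.631. *Jam3* went from 14.5% ± 0.693 to 59.8% ± 3.64. These 3 genes were more often detected in cells with 5 or more *Myog* UMIs than in cells with 0 in all 4 libraries.

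The other 4 members differed along this order. *Cdh2* went from 6.85% ± 0.322 of cells with 0 *Myog* UMIs to 1.46% ± 0.371 of cells with 5 or more, and *Kirrel* from 6.12% ± 0.86 to 0.641% ± 0.313. *Cdh15* went from 16.5% ± 1.35 to 23.1% ± 1.03, and *Jam2* had 2.93% ± 0.433 and 2.80% ± 1.18, with overlapping ranges. The intermediate groups had 186 to 323 cells over all libraries, and their values for the rarer genes spread widely.

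**Figure D2:**
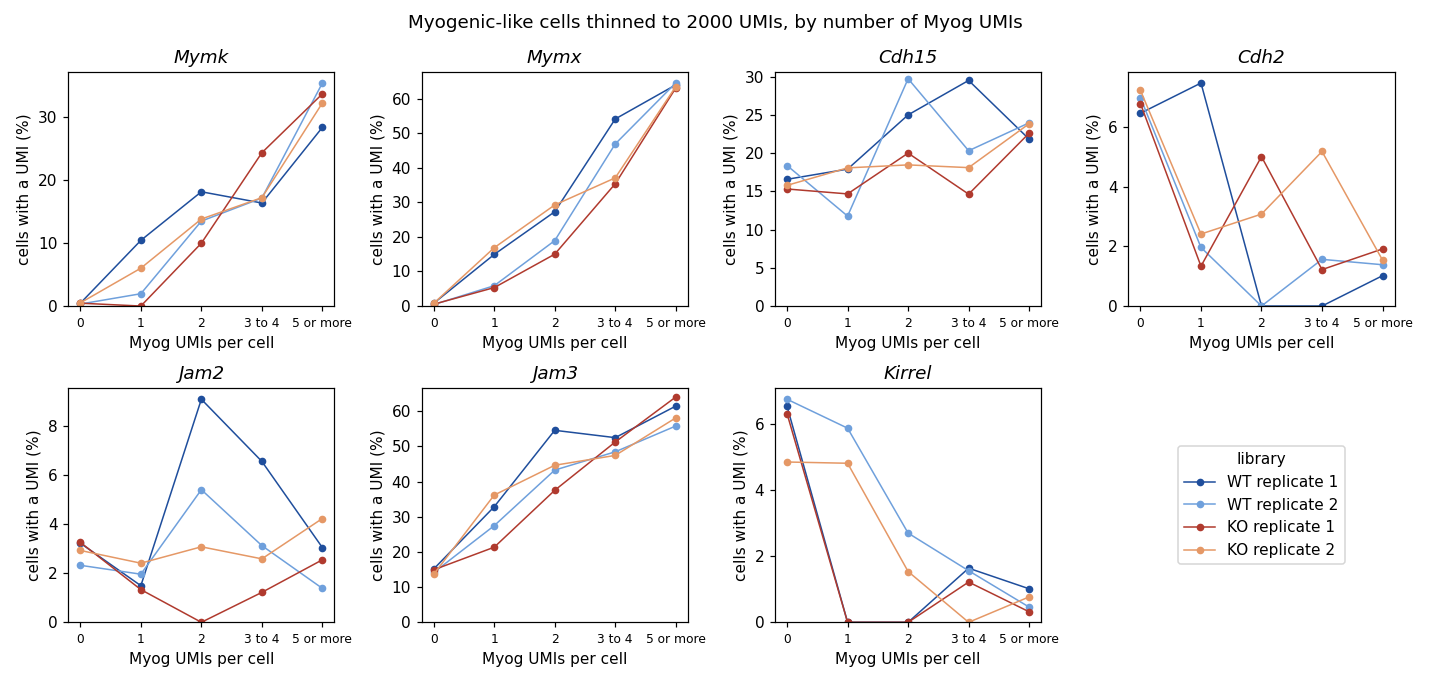
The share of myogenic-like cells with a UMI of each member (vertical axis, %) is plotted against the number of *Myog* UMIs in the same cell (horizontal axis, 5 groups), with a line per library, after thinning to 2000 UMIs. *Mymk*, *Mymx* and *Jam3* end above where they start in all 4 libraries, with falls between some neighbouring groups. *Cdh2* and *Kirrel* end below where they start, and *Jam2* has no direction.

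Within the myogenic-like cells, a class whose markers include *Myog*, those with a fusogen transcript were nearly always *Myog* cells. Cells of other classes were not counted here. In the thinned cells, 95.1% ± 1.24 of those with a *Mymk* UMI and 96.4% ± 1.16 of those with a *Mymx* UMI also had a *Myog* UMI, whereas *Pax7*, the marker of muscle progenitors, was found in 1.66% ± 1.33 and 2.25% ± 0.98 of them. *Pax7* was found in 17.9% ± 1.69 of the cells with a *Cdh15* UMI and in 18.8% ± 1.61 of the cells without, with overlapping ranges. *Myog* was found in 31.7% ± 1.26 of the cells with a *Cdh15* UMI against 25.1% ± 1.71 of the others, and *Mymx* in 17.4% ± 0.93 against 12.0% ± 0.782, higher in all 4 libraries. Cells with both a *Pax7* and a *Myog* UMI held 62.6 ± 24.7 CPM of *Mymk* and 230 ± 113 CPM of *Mymx*, below the 149 ± 13.9 and 492 ± 36.1 CPM of cells with *Myog* alone. Only 10 and 12 cells in the WT and 22 and 19 in the KO libraries had both, and their *Mymx* level ran from 71.3 to 329 CPM.

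Among 1773 myogenic-like cells with a *Myog* UMI, 279 had both *Mymk* and *Mymx*, 560 had *Mymx* alone, 144 had *Mymk* alone and 790 had neither. At 2000 UMIs per cell a transcript can be missed, so the last number limits detection and not expression. Of the cells with *Mymk*, 63.6% ± 1.67 also had *Mymx*, against 9.39% ± 0.815 of the cells without it. Among the 4998 myogenic-like cells with no *Myog* UMI, 4 had both, 18 had *Mymk* alone and 28 had *Mymx* alone.

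The share of *Myog* cells with a fusogen UMI depended on the stage in which the cell was placed. It was 70.3% ± 1.94 for either gene in the myoblast-like cells, 33.0% ± 6.18 in the cycling cells and 8.67% ± 3.31 in the progenitor-like cells (SD, n = 4 libraries). The myoblast-like and cycling ranges, 68.7% to 72.6% and 27.8% to 41.8%, did not overlap. Among 285 cycling cells with a *Myog* UMI, 13 had both genes.

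**Figure D3:**
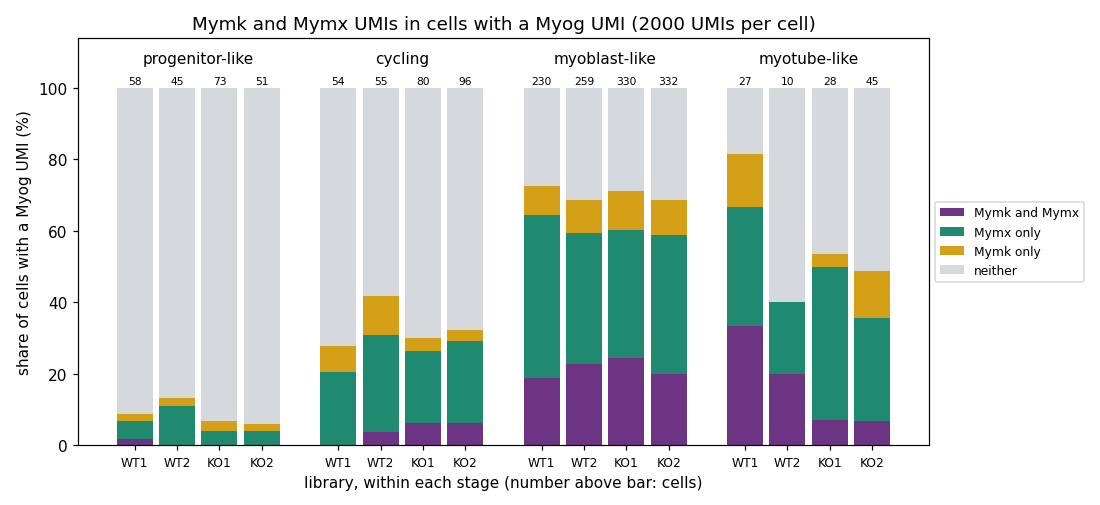
Stacked bars give the share of cells with a *Myog* UMI (vertical axis, %) that had UMIs of *Mymk* and *Mymx*, of *Mymx* only, of *Mymk* only or of neither, for each library within each stage, with the number of cells above each bar. Between 68.7% and 72.6% of the myoblast-like cells had at least 1 of the pair, against 5.88% to 13.3% of the progenitor-like cells, and the myotube-like bars rest on 10 to 45 cells.

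The members with the most similar profiles over the 13 classes and stages were compared with 10633 candidate genes by Pearson's r of log2(CPM + 1), as a description in which the points share libraries. *Mymx* and *Mymk* had r = 0.985 with each other. The genes most like *Mymk* were *2310043L19Rik* (0.996), *Shisal1* (0.993) and *Tnnt2* (0.993), and those most like *Mymx* were *Shisal1* (0.986), *Mymk* and *Myog* (0.982). *Cdh15* was closest to *Bves* (0.990), *Mrln* (0.984) and *Rbm20* (0.983), genes of striated muscle.

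*Jam3* was closest to *Pcbp4* (0.948), *Tubb2b* (0.925) and *Pkia* (0.903). *Kirrel* was closest to *Ston1* (0.956), *Fads2* (0.946) and *Syt11* (0.939), and its r with *Cdh2* was 0.815. *Cdh2* was closest to *Astn2* (0.923), *Dennd2a* (0.914) and *Rarb* (0.913), and *Jam2* to *Mcf2l* (0.854), *Bend7* (0.85) and *Pik3c2b* (0.849). No gene matched *Jam2* as closely as the other members were matched.

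Whether loss of SYISL changed the fusion and adhesion genes was then asked within the myogenic-like cells, on UMIs summed per library (edgeR quasi-likelihood test, 14778 genes, Benjamini-Hochberg adjustment). No member was called, and 0% of all genes tested were called at an adjusted p of 0.05. At an unadjusted p under 0.05 there were 337 genes higher and 249 lower in KO, and DESeq2 called 5 genes, none of them a member. The fetuses were from the same litter, with 2 libraries per genotype, and the p-values measure only the spread between these libraries.

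The WT libraries held 41.0 and 47.2 CPM of *Mymk* and the KO libraries 46.9 and 41.3 CPM, with a log2 fold change of KO over WT of 0.04 (SE 0.10, adjusted p = 0.977). For *Mymx* the WT values were 140 and 149 CPM and the KO values 152 and 135 CPM (log2 0.03, SE 0.08, adjusted p = 0.977). Both genotypes overlapped for both fusogen genes. The 95% interval of the log2 fold change ran from -0.18 to 0.26 for *Mymk* and from -0.14 to 0.20 for *Mymx*.

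Among the adhesion genes the largest difference was that of *Kirrel*, with 25.9 and 28.0 CPM in WT against 26.9 and 23.1 CPM in KO (log2 -0.07, SE 0.10, adjusted p = 0.969). The WT libraries held 97.9 and 97.3 CPM of *Cdh15*, the KO libraries 92.5 and 91.2 CPM (log2 -0.05, SE 0.07, adjusted p = 0.969). It was the only member whose genotypes did not overlap in these cells, and 23.1% of 13317 genes had both KO libraries below both WT libraries, while 10.7% had both above. The log2 fold changes were 0.01 for *Cdh2* (SE 0.09), 0.03 for *Jam2* (SE 0.12) and 0.03 for *Jam3* (SE 0.07), with adjusted p between 0.977 and 0.991. The FAP marker sum in the myogenic-like cells was also higher in both KO libraries (1106 and 1094 CPM) than in WT (902 and 808 CPM), and its part in these values was not tested.

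By stage, each of the 7 members was tested and none was called in the progenitor-like, cycling, myoblast-like or myotube-like cells, where 0% of 12747, 12425, 10462 and 6270 genes were called. In the myoblast-like cells, where *Mymk*, *Mymx* and *Jam3* had their highest means, the log2 fold change was 0.07 for *Mymk* (SE 0.10), 0.01 for *Mymx* (SE 0.10), -0.02 for *Cdh15* (SE 0.10), 0.06 for *Cdh2* (SE 0.37), -0.19 for *Jam2* (SE 0.24), 0.03 for *Jam3* (SE 0.08) and -0.11 for *Kirrel* (SE 0.74, interval -1.71 to 1.49), all with an edgeR adjusted p of 0.998. The intervals were from -0.16 to 0.29 for *Mymk* and from -0.21 to 0.23 for *Mymx*. In the progenitor-like cells the values were 0.16 for *Mymk* (SE 0.37), 0.14 for *Mymx* (SE 0.27), -0.03 for *Cdh15*, 0.09 for *Cdh2*, -0.09 for *Jam2*, 0.07 for *Jam3* and -0.06 for *Kirrel*, with adjusted p from 0.984 to 0.990. *Jam2* was lower in both KO libraries than in both WT libraries in the progenitor-like and the myoblast-like cells, and so was *Cdh15* in the progenitor-like cells, as were 23% of 13188 and 19.3% of 12484 genes there. In the myotube-like cells the members ran from -0.65 to 0.14 (adjusted p = 1.00), with intervals reaching from -1.55 to 1.08, so moderate differences were not detectable there.

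**Figure D4:**
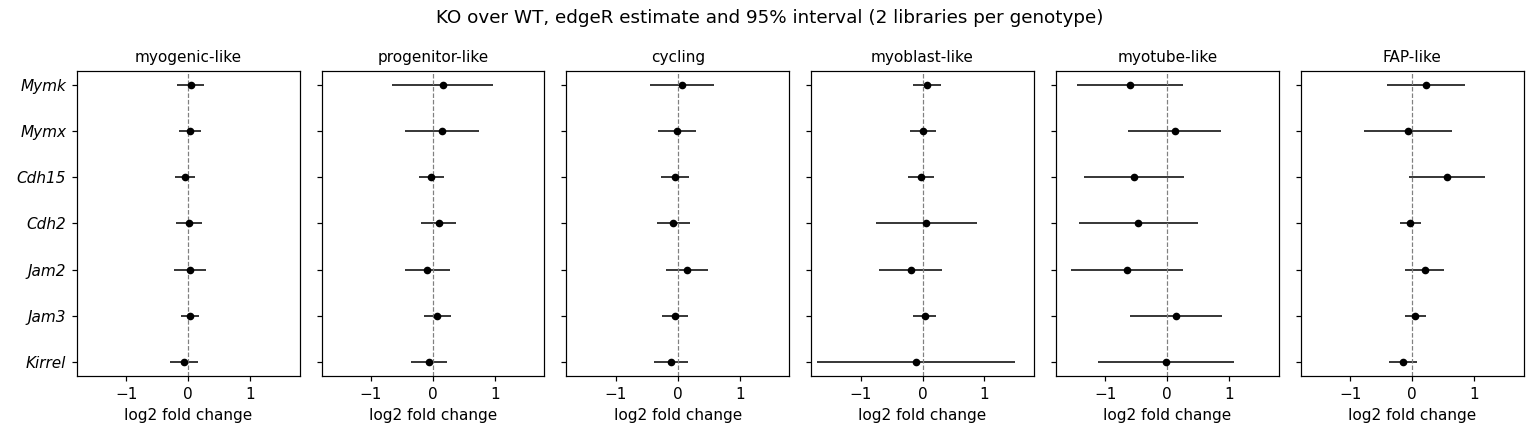
The log2 fold change of KO over WT (horizontal axis) is shown for each member in the myogenic-like cells, their 4 stages and the FAP-like cells, as the edgeR estimate (point) with its 95% interval (bar) from 2 libraries per genotype. Every interval includes 0, and the intervals are widest for *Kirrel* in the myoblast-like cells and in the myotube-like panel.

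The share of *Myog* cells that carried a fusogen UMI was compared as a measure per cell. For *Mymk* the WT shares were 22.0% and 25.5%, the KO shares 25.4% and 22.5%, with complete overlap (difference 0.267 percentage points, exact two-sided permutation p = 1). For *Mymx* the WT shares were 49.1% and 48.8%, the KO shares 46.4% and 46.0%, a difference of -2.73 percentage points (exact permutation p = 0.33, adjusted 0.667 over 4 shares). Since 0.33 is the smallest p that 2 libraries against 2 allow, this could not pass a threshold of 0.05, and the sign of the *Mymx* difference turned when cells were thinned to 1000 UMIs (2.59) or Scrublet doublets were removed (2.52).

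Over all kept cells, summed per library as a bulk sample would be, *Mymk* was at 7.45 and 7.91 CPM in WT against 10.0 and 8.24 CPM in KO (log2 0.30, SE 0.12), *Mymx* at 25.2 and 24.6 against 32.0 and 26.2 CPM (log2 0.27, SE 0.10) and *Cdh15* at 17.8 and 16.6 against 20.1 and 18.46 CPM (log2 0.21, SE 0.08). For these 3 genes both KO libraries were above both WT libraries, as for 9.73% of 15052 genes, and *Cdh2* and *Kirrel* were below, as for 25.8%. The unadjusted p was 0.0489, 0.0417 and 0.0416 and the adjusted p was 0.946 for each, so none was called, and 0% of 20419 genes were. Leaving out KO replicate 1 lowered the estimates of these 3 genes to 0.16, 0.13 and 0.16, and leaving out KO replicate 2 gave 0.42, 0.39 and 0.26, so the size for *Mymk* and *Mymx* rested largely on KO replicate 1. In such sums more cells of a type and more RNA per cell cannot be told apart. The share of myogenic-like cells was also higher in both KO libraries (20.9% and 18.4%) than in WT (17.5% and 16.1%), and within these cells the same genes had log2 fold changes of 0.04, 0.03 and -0.05. The libraries differed in other classes too. Chondrocyte-like cells formed 3.25% and 5.06% of the WT and 0.968% and 6.04% of the KO libraries, and unnamed cells 9.24% and 13.8% against 5.34% and 15.3%. The part of these classes in the myogenic-like share was not tested.

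Outside the muscle lineage the members were compared in the FAP-like cells, where the log2 fold change was 0.23 for *Mymk* (SE 0.26), -0.06 for *Mymx* (SE 0.29), 0.56 for *Cdh15* (SE 0.25), -0.03 for *Cdh2* (SE 0.07), 0.20 for *Jam2* (SE 0.13), 0.05 for *Jam3* (SE 0.07) and -0.15 for *Kirrel* (SE 0.09), with adjusted p from 0.996 to 0.999 and 0% of 18128 genes called. Both KO libraries were above both WT libraries for *Mymk*, *Cdh15* and *Jam2*, as for 8.49% of 14448 genes with at least 1 CPM, and below for *Cdh2* and *Kirrel*, as for 21.8%. The means of *Mymk* and *Cdh15* were under 1 CPM there. A direct test, with the library as a block, asked whether the KO effect in FAP-like cells was that of myogenic-like cells. For *Cdh15* the effect in myogenic-like minus that in FAP-like cells was -0.62 on the log2 scale (SE 0.19), with an unadjusted p of 0.00964, but the edgeR adjusted p was 1, and 0.0112% of 17901 genes were called. *Cdh15* rested on only 29 to 53 UMIs per library in the FAP-like cells.

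In 7 further classes 25 pairs of a member and a class passed the filter on low counts and none was called. The share of all genes called was 0.017% in endothelial-like, 0.0952% in smooth muscle or pericyte-like, 0.0982% in mast-like and 0.0173% in tenocyte-like cells, and 0% in glial-like, macrophage-like and chondrocyte-like cells. The smallest unadjusted p among the 25 was 0.0581, for *Cdh2* in endothelial-like cells, at 5.22 and 6.29 CPM in WT and 8.13 and 10.0 CPM in KO. *Mymk* and *Mymx* did not pass the filter in endothelial-like, glial-like or smooth muscle or pericyte-like cells. A few cells there held many of the stray UMIs, as in KO replicate 2, where 3 glial-like cells held 25 *Mymx* UMIs, and KO replicate 1, where 6 smooth muscle or pericyte-like cells held 23.

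Of the 58 other fusion and adhesion genes, 51 were tested in the myogenic-like cells and none was called, with 2 higher and 1 lower in KO at an unadjusted p under 0.05 and a median log2 fold change of 0.03, against 0.0022 over all genes tested. The 3 with the smallest p were *Arf6* (log2 0.23, SE 0.08), a small GTPase of membrane traffic, *Cd9* (log2 0.22, SE 0.09), a tetraspanin of cell fusion, and *Myof* (log2 -0.22, SE 0.10), which encodes the membrane protein myoferlin, each with an adjusted p of 0.962.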

How the data were processed

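Leg muscle cells of 2 WT and 2 KO libraries were read with Chromium Single Cell 3′ v3 chemistry. The authors made the deposited values, raw UMI counts per gene and cell, with Cell Ranger 7.2.0 on mm10, and did not normalise them. The 7 members, the marker lists and the list of fusion genes were chosen with earlier results of these data known.

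Kept cells had 1000 to 6000 genes, 1000 to 25000 UMIs and less than 8% of UMIs from mitochondrial genes, and no doublet caller was run in the main setting. Scrublet marked 1.65% to 2.56% of kept cells as doublets in an alternative. Leiden clustering (scanpy 1.11.5, igraph 0.11.9, scikit-learn 1.9.0) used 3000 variable genes, 30 components, 20 neighbours and resolution 0.3, without the members. To receive a class name, a cluster had to show a minimum of 3 markers of the class and 40% of that list at 2-fold over other cells, each in 10% or more of its cells. Stages needed 3 markers at 1.5-fold over other myogenic-like cells, without the 40% share. The stage with the largest share of its list then gave the name. These naming rules were set after the data were seen. FAP-like was given to the rest where 3 or more FAP markers stood at 25% or more of their maximum over clusters. Clusters with competing class markers stayed unnamed, among them 3622 cells that carried all 8 FAP markers besides tendon markers.

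Sums of UMIs over the cells of a class in each library entered edgeR 4.0.16 (TMM, filterByExpr, quasi-likelihood test, R 4.3.3), with adjustment over all genes and a threshold of 0.05. SEs were derived from the F statistic. Classes with under 50 cells in a library were not tested, but stages were. The named genes were the 7 members, the 3 genes most like each (at least 20 CPM in a class) and, as no list gene was called, the 3 with the smallest p in myogenic-like cells. Other list genes and markers were named as examples after their values were seen. The edgeR script was tested on simulated data. DESeq2 1.42.0, RLE factors, other count filters, a replicate block, leaving out each library, other cell filters, clustering settings and thinning depths were alternatives. Gene models were from GENCODE M21, which held 32158 of the 32285 feature IDs.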

Additional observations from a re-analysis of the deposited data

How the results depend on the processing

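The members were called under none of the alternatives in the 8 comparisons of myogenic-like cells, their stages, FAP-like cells, all kept cells and the difference between the 2 classes, 103 combinations in all. The total of called genes moved more. DESeq2 called 5 genes in myogenic-like, 1 each in progenitor-like, cycling and myoblast-like, 2 in myotube-like, 6 in FAP-like, 51 in all kept and 40 in the other named classes, where edgeR called 23. The paired fit with a replicate block called 7 genes in myogenic-like, 8 in cycling, 6 in myoblast-like, 10 in myotube-like and 300 in the other classes. Same-numbered libraries deviated together only weakly (correlation 0.0088 to 0.198), and the numbers were not taken to pair them. Without a filter on low counts 18 genes were called in myoblast-like, 46 in myotube-like and 432 in the other classes. The looser cell filter gave 3, 1 and 5 there, finer clustering gave 7 in myogenic-like cells, and with Scrublet cells removed the difference between myogenic-like and FAP-like cells had 0 called genes in place of 2. When libraries were centred before clustering, not all of the other classes were recovered and their total was not given. In the other classes *Mymx*, left out by the main filter, was called by edgeR in glial-like cells with no filter (adjusted p = 6.17e-05) and without KO replicate 1 (0.021), and in smooth muscle or pericyte-like cells with no filter (0.00631) and without KO replicate 2 (0.002). DESeq2 and the looser cell filter also tested it in both classes and did not call it, with adjusted p from 0.981 to 1.00, nor was it called without either WT library.

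Leaving out each library gave 0 to 7 called genes in myogenic-like, 8 to 210 in progenitor-like, 25 to 209 in cycling, 4 to 27 in myoblast-like, 27 to 104 in myotube-like, 0 to 10 in FAP-like, 0 to 58 in all kept and 327 to 437 in the other classes, and 0 to 6 for the difference between classes. The highest counts in progenitor-like and cycling cells, 210 and 209, came without KO replicate 1. The lone library left in a genotype was then assumed to vary like the other pair. Over 22 member log2 fold changes and 299 combinations with an alternative, 25 changed sign, none of them above 0.131 in size. Leaving out a library gave ranges of -0.0497 to 0.137 for *Mymk*, -0.0415 to 0.100 for *Mymx*, -0.0725 to 0.105 for *Cdh2*, -0.0705 to 0.133 for *Jam2* and -0.164 to 0.0274 for *Kirrel* in myogenic-like cells. In myoblast-like cells the ranges were -0.0906 to 0.214 for *Mymk*, -0.131 to 0.145 for *Mymx*, -0.0887 to 0.0507 for *Cdh15* and -0.0502 to 0.117 for *Jam3*. In progenitor-like cells they were -0.0507 to 0.00533 for *Cdh15*, -0.0148 to 0.202 for *Cdh2* and -0.197 to 0.0676 for *Kirrel*, and in FAP-like cells -0.0696 to 0.0193 for *Cdh2*. With finer clustering *Mymk* was at -0.0122, *Mymx* at -0.0246, *Jam2* at -0.0031 and *Jam3* at -0.0032 in myogenic-like cells and *Cdh15* at 0.0245 in progenitor-like cells. With the looser cell filter *Cdh2* was at -0.0046 in myogenic-like cells, and with Scrublet cells removed *Cdh15* was at 0.0094 in myoblast-like cells.

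The difference in the share of *Myog* cells with *Mymk*, 0.267 percentage points in the main setting, was 2.61 at 1000 UMIs per cell, -1.23 without thinning, -0.637 with the looser cell filter and -0.999 with Scrublet cells removed, and -1.49 to 2.03 over left-out libraries. For *Mymk* and *Mymx* together it was 0.0489 in the main setting, -2.03, -1.45 and -0.969 in the same 3 alternatives, and -1.41 to 1.503 over left-out libraries. For *Mymx* it was 2.59 at 1000 UMIs per cell and 2.52 with Scrublet cells removed, and for either gene 5.11 and 2.49, with main values of -2.73 and -2.51. The cause of these changes was not tested.

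Each genotype had 2 libraries, myotube-like cells numbered 17 to 65 per library, and *Xist* was high in KO replicate 2 alone. Classes were rebuilt from markers and are not those of the study.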
